A study of Bubalus bubalis with 8 samples.

Results

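The genes described here make cholesterol or restrain its making: HMGCS1, IDI1, FDFT1, SQLE, LSS and DHCR7 encode enzymes of the synthesis pathway, and INSIG1 encodes a brake on it. None of the 7 encodes an uptake receptor, so uptake genes are described separately from them. They were chosen by gene name. Every probe with one of these names was taken, which gave 14 of the 43653 probes on the bovine array, each printed in 1 spot. One LSS probe was left out because it lies in a region that was dark on the CTR array. Of the other 13 probes, 11 were detected on at least 1 array, and 2 on none.

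The cells were mammary epithelial cells (MECs) grown as a primary culture from buffalo mammary gland and used after the 10th passage. Unstressed MECs (CTR) stayed at 37 °C on a control plate. The other MECs spent 1 h at 42 °C, recovered at 37 °C in 5% CO2, and were harvested by trypsin after 30 min or after 2, 4, 8, 12, 16 or 24 h. RNA of each of these 8 conditions was labelled with Cy3 and hybridised to 1 array, so no condition had a replicate, no test was possible, and each change stands on 2 arrays. Every time point was compared with the same CTR array. Control plates were, per the study's methods, harvested along the time course too, but only 1 CTR array was analysed here, so time in culture and time after heat cannot be told apart.

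Cholesterol is built from acetyl units through mevalonate, isoprenoids and squalene. Most genes of the route share one control: when membranes of the endoplasmic reticulum run short of sterol, the escort protein SCAP carries the transcription factor SREBP to the Golgi, where it is cut free to switch on genes of synthesis and uptake. INSIG proteins hold SCAP back when sterol is plentiful, and INSIG1 is itself switched on by SREBP. In the mammary gland these pathways also serve milk fat, whose globules are wrapped in a membrane rich in cholesterol.

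The probes are bovine 60-mers, read against buffalo RNA, and mismatches between the species were not examined. The array files place them on the bovine assembly Btau 3.1. Shown are 4 member probes taken to lie in coding sequence, from a reading frame without a stop and from what is known of the proteins, because for HMGCS1, IDI1, FDFT1 and LSS they read another stretch of the gene than its other probes. They are called coding probes below. Most of the remaining member probes also have a frame without a stop, and whether any of the remaining ones lies in coding sequence was not examined. All letters are in lower case because no base within them is singled out.
HMGCS1 A_73_P277761: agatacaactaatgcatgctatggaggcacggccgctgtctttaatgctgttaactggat
IDI1 A_73_P364656: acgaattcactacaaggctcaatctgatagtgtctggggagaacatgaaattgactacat
FDFT1 A_73_P337871: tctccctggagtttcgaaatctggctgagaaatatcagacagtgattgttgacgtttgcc
LSS A_73_P048191: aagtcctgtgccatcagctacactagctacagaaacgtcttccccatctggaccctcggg

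These probes lie at chr20:33439105-33439164 (plus strand), chr13:46498059-46498118 (plus strand), chr8:7478872-7478931 (minus strand) and chr1:148839212-148839271 (minus strand). The LSS probe shown is the one in the dark region, and it was not well above background on any array. The IDI1 probe shown was higher than CTR at 2 h and 4 h, as was the other probe of the gene. The HMGCS1 and FDFT1 probes shown were dim in CTR and entered only through the arrays on which they were detected. Their direction is therefore no separate support for the other probes of these genes, and the FDFT1 probe has no bound at 2 h.

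Levels are log2 intensities minus the 75th percentile of their array, so that 0 is the signal of that percentile and a step of 1 is 2-fold. A level is compared between arrays for 1 probe, never between probes. A probe was called detected where the scanner software marked it well above background. At 30 min the level is that of CTR plus the difference between both arrays in the log2 values that the authors deposited, and detection there meant a level of at least 0.23, which is the detection limit of the 24 h array and the strictest of all. The error of a change comes from the spread between spots of the few probes printed several times, and was between 0.25 and 0.53 on the log2 scale, the last at 16 h. The 30 min array has no usable error of its own: its scanner file gave an SD between spots of 2.27, and the CTR value of 0.18 was used in its place, so a statement on errors that involves 30 min is provisional. It covers spotting and scanning within an array, not the variation between cultures.

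The arrays came from 2 slides. Slide 1 held CTR and the late arrays of 8, 12 and 24 h, and slide 2 held the early arrays of 30 min, 2 h and 4 h together with 16 h. The levels of a probe are given in these orders, first for slide 1 (CTR, 8, 12, 24 h) and then for slide 2 (30 min, 2, 4, 16 h). Slide and time after heat can therefore not be told apart wherever CTR is compared with a slide 2 array. The share of probes well above background was between 23.2% at 24 h and 40.2% at 2 h on the 7 arrays other than 30 min. HSPA1A, the inducible heat shock protein, read by A_73_P359866, differed from CTR on the log2 scale by 4.56, 2.94 and -1.43 on slide 1, and by 3.42, 2.84, 1.81 and 0.69 on slide 2. It was thus above CTR on arrays of both slides, and below it at 24 h.

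Of the members, SQLE, HMGCS1, FDFT1, IDI1 and INSIG1 were higher than CTR at the 3 early time points, and some of them at 16 h. They were close to CTR or below it in the samples of 8, 12 and 24 h. DHCR7 did not share this course, and for LSS no fold could be given. The arrays on which these genes were higher all lie on the other slide than CTR. At 30 min the increase is seen in the deposited values and, for most of the probes, not in the scanner intensities. SQLE was 6.54-fold above CTR at 4 h, and INSIG1 at least 5.34-fold. In total RNA of a culture, fewer cells of a type and less RNA per cell cannot be told apart.

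**Figure D1:**
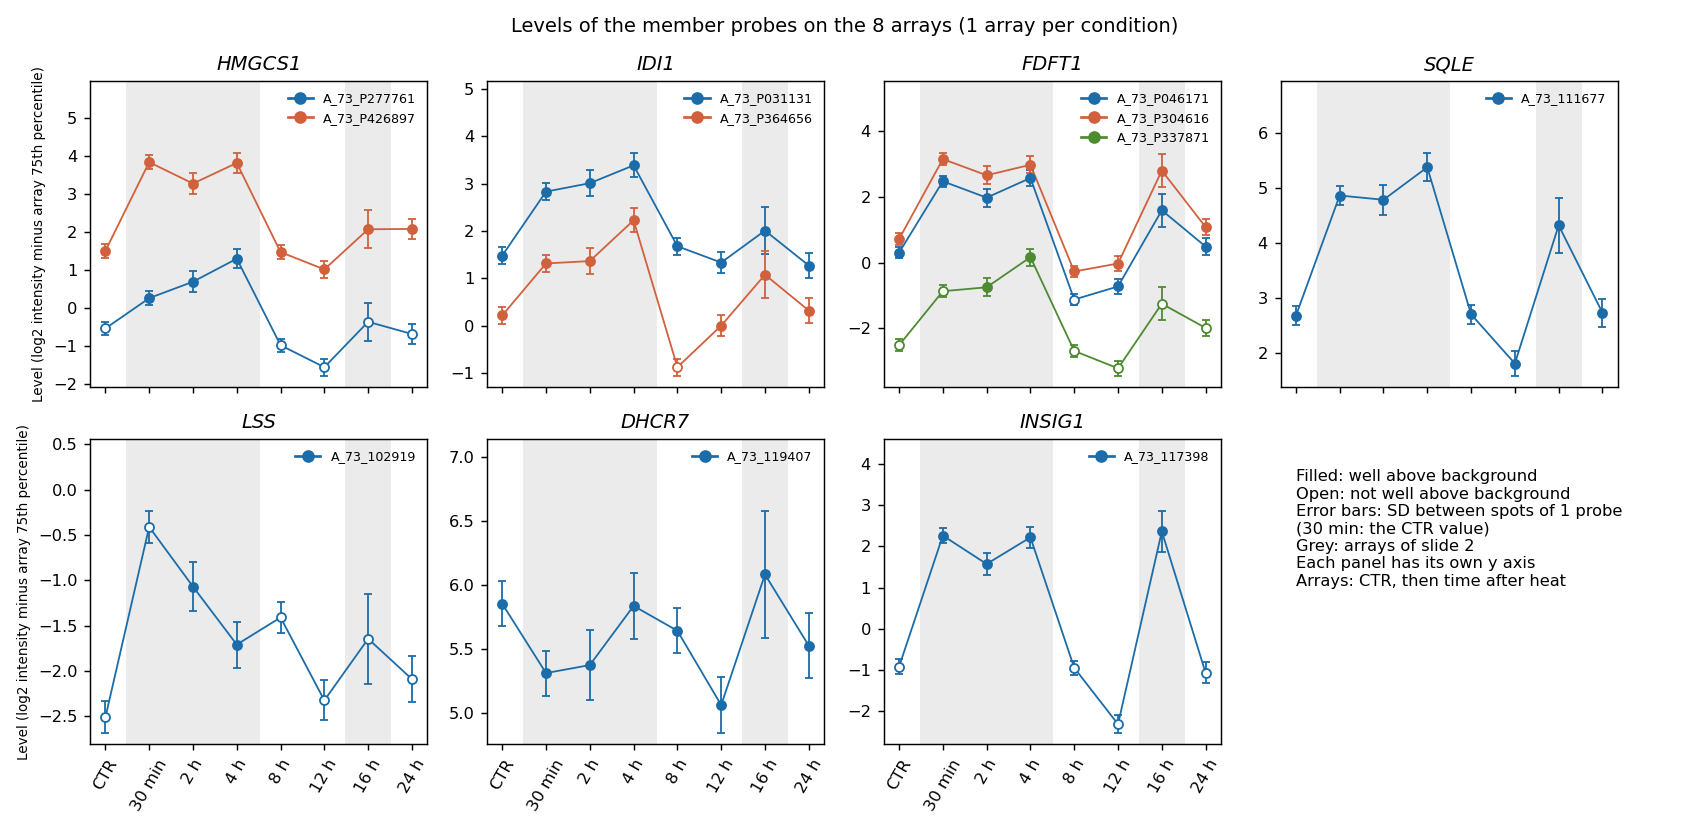
Level of each member probe detected on at least 1 array (y axis, log2 intensity minus the 75th percentile of the array) on the 8 arrays (x axis), 1 panel per gene with its own y axis. Filled points were well above background and open points were not, bars are the SD between spots of 1 probe (at 30 min that of CTR), and grey marks slide 2. SQLE stood between 4.32 and 5.38 on the slide 2 arrays and between 1.80 and 2.73 on the slide 1 arrays, whereas the DHCR7 ranges overlapped.

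HMGCS1 makes HMG-CoA, the substrate from which mevalonate is formed. Its probe A_73_P426897 (chr20:33448201-33448260, plus strand) had levels of 1.51, 1.47, 1.02 and 2.08 on slide 1, and of 3.84, 3.28, 3.82 and 2.08 on slide 2. The 3 early time points lay above all others, and 16 h was level with 24 h. The early changes from CTR, in order of time, were 2.33, 1.77 ± 0.32 and 2.31 ± 0.31, which is 5.04-fold, 3.41-fold and 4.97-fold. The changes of 0.57 at 16 h and 0.58 at 24 h were within 2 errors. The coding probe A_73_P277761 was not well above background in CTR, and had levels of 0.26, 0.70 and 1.30 at the 3 early times, the only arrays on which it was detected. It was at least 1.38-fold, 1.86-fold and 2.82-fold above CTR at these times. The remaining probe of the gene, A_73_P204942 (chr20:33449476-33449535), was detected on no array.

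IDI1 turns isopentenyl diphosphate into its isomer, the starter unit of isoprenoid chains. A_73_P031131 (chr13:46498427-46498486, plus strand) had levels of 1.48, 1.68, 1.34 and 1.27 on slide 1, against 2.83, 3.01, 3.38 and 2.01 on slide 2. The 4 slide 2 arrays were the highest, with 4 h on top, but neighbours in this order lay within 2 errors of each other. The folds over CTR at the early times were 2.55, 2.88 and 3.74. The coding probe A_73_P364656 read 0.22, -0.87, 0.01 and 0.32 on slide 1, and 1.32, 1.37, 2.23 and 1.08 on slide 2. At 4 h it was 4.02-fold above CTR, and here 4 h also exceeded 2 h by more than 2 errors (0.86 ± 0.37). It was not well above background at 8 h, where it was at least 1.5-fold below CTR, while A_73_P031131 was 0.20 above CTR at that time.

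FDFT1 is squalene synthase, the first enzyme that commits isoprenoids to sterols. A_73_P304616 (chr8:7470644-7470703, minus strand) stood at 0.72, -0.27, -0.03 and 1.08 on slide 1, and at 3.15, 2.66, 2.98 and 2.80 on slide 2. The slide 2 arrays did not overlap the slide 1 arrays, and the 4 of them lay within 2 errors of their neighbours. On slide 2 its folds over CTR were 5.41, 3.84, 4.8 and 4.24. A_73_P046171 (chr8:7470423-7470482, minus strand) stood at 0.30, -1.12, -0.72 and 0.49 on slide 1, and at 2.48, 1.98, 2.58 and 1.59 on slide 2. The corresponding slide 2 folds were 4.51, 3.19, 4.83 and 2.44. FDFT1 also went below CTR: at 12 h A_73_P046171 was 2.04-fold and A_73_P304616 1.67-fold lower, both beyond 2 errors. At 8 h A_73_P046171 was dim and at least 1.59-fold lower, and A_73_P304616 was 1.98-fold lower. These late decreases depend on the processing. With normexp background correction the 12 h changes were -0.36 (A_73_P046171) and -0.46 (A_73_P304616), both within 2 errors. Scaled to bright probes nearby they were -0.76 and -0.19. At 8 h the normexp changes were -0.28 for A_73_P046171 and -0.59 for A_73_P304616, the latter beyond 2 errors. The coding probe A_73_P337871 was detected only at 2 h and 4 h, with levels of -0.75 and 0.17 against -2.51 in CTR, and the bound at 4 h was at least 1.29-fold.

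SQLE is squalene epoxidase, a step that uses oxygen and is regarded as a point of flux control. Its probe A_73_111677 (chr14:14605558-14605617, minus strand) had levels of 2.67, 2.70, 1.80 and 2.73 on slide 1, and of 4.87, 4.79, 5.38 and 4.32 on slide 2. CTR, 8 h and 24 h were within 0.06 of each other, 12 h was the lowest, and all 4 slide 2 arrays stood above them. The slide 2 changes from CTR were 2.19, 2.12 ± 0.32, 2.71 ± 0.31 and 1.65 ± 0.53, or 4.57-fold, 4.33-fold, 6.54-fold and 3.13-fold. At 12 h the level was 1.83-fold below CTR, and with normexp background correction the change there was -0.35, within 2 errors.

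LSS folds squalene epoxide into lanosterol, the first sterol of the route. Its probe outside the dark region, A_73_102919 (chr1:148837227-148837286, minus strand), had levels of -1.07 at 2 h and -1.71 at 4 h, where it was detected, and -2.51 in CTR, where it was not. Both levels lie under the detection limit of the CTR array (-0.20), so no fold can be given.

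DHCR7 makes the last double-bond reduction that yields cholesterol. A_73_119407 (chr29:50153776-50153835, minus strand) had levels of 5.85, 5.64, 5.06 and 5.53 on slide 1, and of 5.31, 5.37, 5.84 and 6.08 on slide 2. No time point reached 2-fold, and neighbours in the order lay within 2 errors of each other. The level was 1.45-fold below CTR at 30 min and 1.73-fold below it at 12 h. Bright probes within 10 spots had a median of 0.33 in CTR, -0.34 at 30 min and -0.12 at 12 h, relative to their own medians over the arrays, and scaled to them the changes of DHCR7 were 0.12 and -0.35. DHCR7 was thus the one member detected on all arrays that was not at least 2-fold higher at the early time points.

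INSIG1, the brake on SREBP, had the largest bound of the members. A_73_117398 (chr4:121371794-121371853, plus strand) read -0.92, -0.95, -2.31 and -1.07 on slide 1, and 2.26, 1.57, 2.22 and 2.36 on slide 2. It was well above background on the 4 slide 2 arrays and on none of slide 1. Its slide 2 folds over CTR were at least 5.5, 3.41, 5.34 and 5.9. The spot lies in row 3, at the edge of the array, where bright probes within 10 spots had a median of 0.42 in CTR, and of -0.55, -0.62, -0.42 and 0.49 on slide 2, relative to their own medians over the arrays. These medians, each of 25 probes, were below that of CTR at the 3 early times and above it at 16 h. Their part in the change of INSIG1 was not tested. The remaining probe of the gene, A_73_P429676 (chr4:121370462-121370521), was detected on no array.

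The counts of members were set beside those of all probes. Of the 7 member probes detected in CTR, all were detected on the slide 2 arrays. At each early time 6 of these 7 were at least 2-fold higher, against 7.9%, 5.58% and 5.73% of all probes detected on both arrays, and at 16 h 3 of 7 against 9.17%. DHCR7 was the one not higher at the first 3 times. Their median change was 2.17, 1.67, 2.26 and 0.86 on the slide 2 arrays, where that of all probes detected on both was -0.22, -0.41, -0.18 and -0.02. The 30 min values rest on the deposited log2 table. With the scanner intensities of that array another set of 7 member probes was tested, and 2 were higher and 5 lower, with a median of -2.30. SQLE and FDFT1 A_73_P046171 were outlier spots there and dropped out. The 2 higher ones, INSIG1 A_73_117398 and FDFT1 A_73_P337871, were dim in CTR, and the 5 lower ones were detected in CTR.

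Some members were dim in CTR and entered only through the array on which they were high. With them, and at face value, 7 of 9, 10 of 11, 9 of 11 and 4 of 8 probes were at least 2-fold higher on the slide 2 arrays, where 14.1%, 16.9%, 12.9% and 15.4% of all probes tested that way were. With dim spots taken at their bound the counts were 7, 7, 8 and 4, against 11.5%, 7.95%, 6.01% and 11.3%. The LSS probe and the coding probe of FDFT1 at 2 h, which have no bound, and the coding probe of HMGCS1 there, whose bound is under 2-fold, are among the probes counted at face value only.

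On the late slide 1 arrays no member probe was at least 2-fold higher, where 4.19% (8 h), 3.98% (12 h) and 1.1% (24 h) of all probes were. In the other direction, no member probe was at least 2-fold lower on any slide 2 array, where 25%, 18.7%, 12.6% and 21% of all probes were, or at 24 h, where 8.33% were. At 8 h FDFT1 A_73_P046171 and IDI1 A_73_P364656, both dim there, were 2 of 7 lower at face value against 5.73%, and 0 of 7 were at least 2-fold lower by their bounds against 3.11%. At 12 h 1 of 7 was lower (FDFT1 A_73_P046171, detected on both arrays) against 6.03%, or 5.59% with dim spots at their bound. Among probes detected on both arrays, 2.29%, 0.834% and 0.603% of all were higher at 8, 12 and 24 h and 0 members, and 3.02%, 6% and 3.83% of all were lower and 0 of 5, 1 of 7 and 0 of 7 members. The median change of the members tested was -0.21, -0.74 and 0.10 on the slide 1 arrays after heat. Over all probes tested the median was between -0.35 and -0.04, and it was more than 0.1 from 0 at 6 of the 7 time points. The 7 comparisons share the CTR array, so they are not independent of each other.

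**Figure D2:**
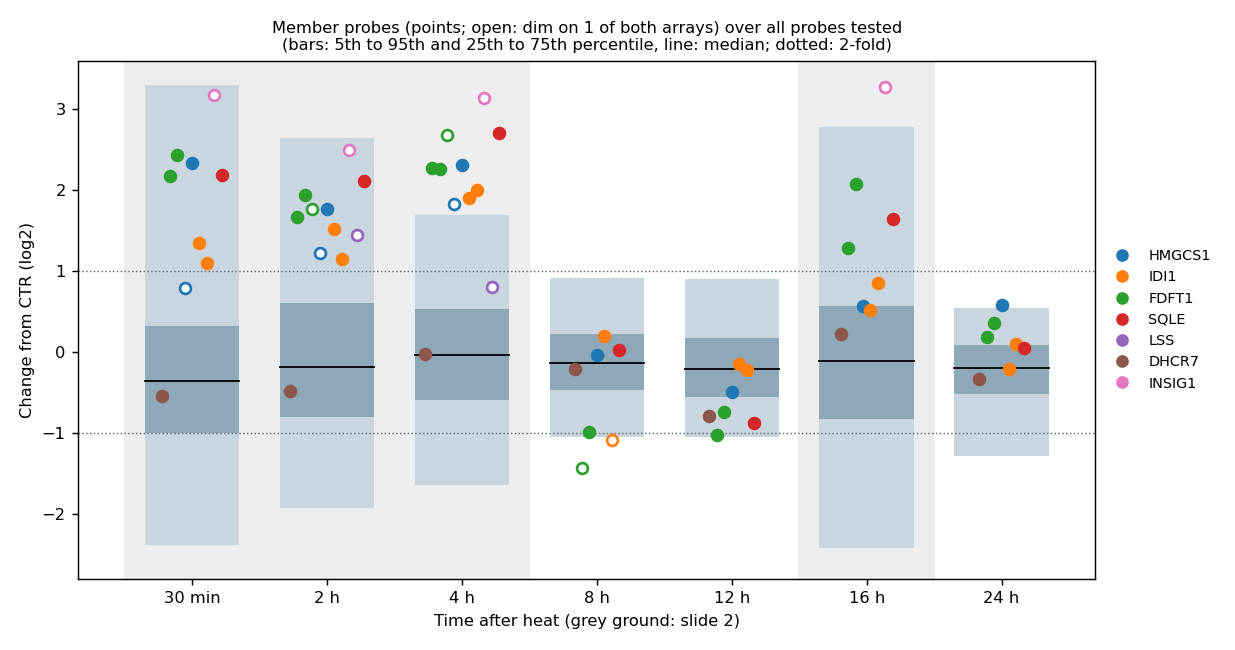
Change of each member probe tested from CTR (y axis, log2) at the 7 time points (x axis), over the spread of all probes tested (pale bars 5th to 95th percentile, dark bars 25th to 75th, line the median). Open points were dim on 1 of both arrays, and grey marks slide 2. At 4 h the SQLE, INSIG1, HMGCS1, FDFT1 and IDI1 points lie above the pale bar, which ends at 1.69, and at 24 h all members lie between -0.33 and 0.58.

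Comparisons within a slide do not involve the difference between slides. Within slide 1 the 3 arrays after heat are set against CTR by the values given above. Within slide 2, 4 h was above 2 h for 10 of 11 member probes, by a median of 0.59, which is within 2 errors (0.37 each), and for 70.5% of all 13946 probes detected on both, by a median of 0.27. It was above 16 h for 6 of 8 member probes detected on both, by a median of 1.02 with a range from -0.25 to 1.74, where 43.4% of all 9979 such probes were above and their median was -0.10. HMGCS1 A_73_P426897 had the largest of these differences, 1.74 ± 0.56, whereas FDFT1 A_73_P304616 differed by 0.18 and INSIG1 by -0.14. At 16 h HMGCS1 and IDI1 were within 2 errors of CTR, while FDFT1 and SQLE were higher by more than 2 errors and INSIG1 was detected only there and at the early times. Of the 5 member probes well above background on the 7 arrays other than 30 min, 3 had all slide 2 levels above all slide 1 levels, a pattern seen in 10.2% of 8042 such probes. The reverse pattern was seen in 13.95% of all and in 0 members.

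A further 13 synthesis genes of the pathway moved with the members in part. All 13 have probes, 30 in number, of which 3 lie in the dark region. Of the probes detected on both arrays, 8 of 17, 8 of 17, 10 of 17 and 5 of 14 were at least 2-fold higher on the slide 2 arrays, against 7.9%, 5.58%, 5.73% and 9.17% of all such probes. At least 2-fold lower were 0 at the early times and 1 at 16 h, against 15.1%, 23.2%, 14.5% and 11.6%. The median change was 0.91, 0.91, 1.41 and 0.78 on these arrays. On the late slide 1 arrays at most 2 were higher, both of CYP51A1, and at most 1 lower. These counts leave out probes that were dim on 1 of both arrays. At face value, with probes detected on either array, 0 of 19, 1 of 24, 1 of 23 and 4 of 17 were at least 2-fold lower on slide 2. Of all probes tested that way, 25%, 18.7%, 12.6% and 21% were.

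FDPS, which builds farnesyl diphosphate, changed by 1.96 at 4 h with A_73_110752 and by 1.80 with A_73_P275376. NSDHL, a sterol demethylation enzyme, changed by 2.18, 2.14, 2.88 and 1.25 on the slide 2 arrays with A_73_P044786. For MSMO1, which acts beside NSDHL, the 4 h changes of the 3 probes detected in CTR were 1.41, 1.54 and 2.30. EBP, a sterol isomerase, changed by 1.31 and 1.97 at 4 h. These genes followed the course of the members, with 4 h as the highest or nearly the highest array.

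Others of the synthesis list had their own course. CYP51A1, which demethylates lanosterol, was higher on both slides: A_73_P043011 changed by 1.61 at 4 h and, on slide 1, by 1.10 and 1.27 in the 8 h and 12 h samples, with 1.65, 1.20 and 1.12 for A_73_P167712. LBR, a nuclear membrane protein with sterol reductase activity, changed by 2.08 at 30 min and 2.04 at 2 h but 0.36 at 4 h (A_73_121459). HSD17B7 changed by -1.84 and SC5D by -2.22 at 16 h, the latter dim there and at least 2.77-fold lower. PMVK, a mevalonate pathway kinase, changed by 1.15 at 16 h and by 0.82 at 4 h, and TM7SF2 by less than 2-fold at every time. MVD (A_73_P448981) was detected at 2 h and 4 h only, at least 1.43-fold and 1.45-fold above CTR. ACAT2, an acetoacetyl-CoA thiolase at the entry of the route, had no probe at least 2-fold higher. Its probe A_73_P396986 was dim at 16 h and at least 2.14-fold lower there. A_73_P051431 changed by -1.10 at 12 h, being dim there and at least 1.98-fold lower. MVK has its bright probe in the dark region and was not used.

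**Figure D3:**
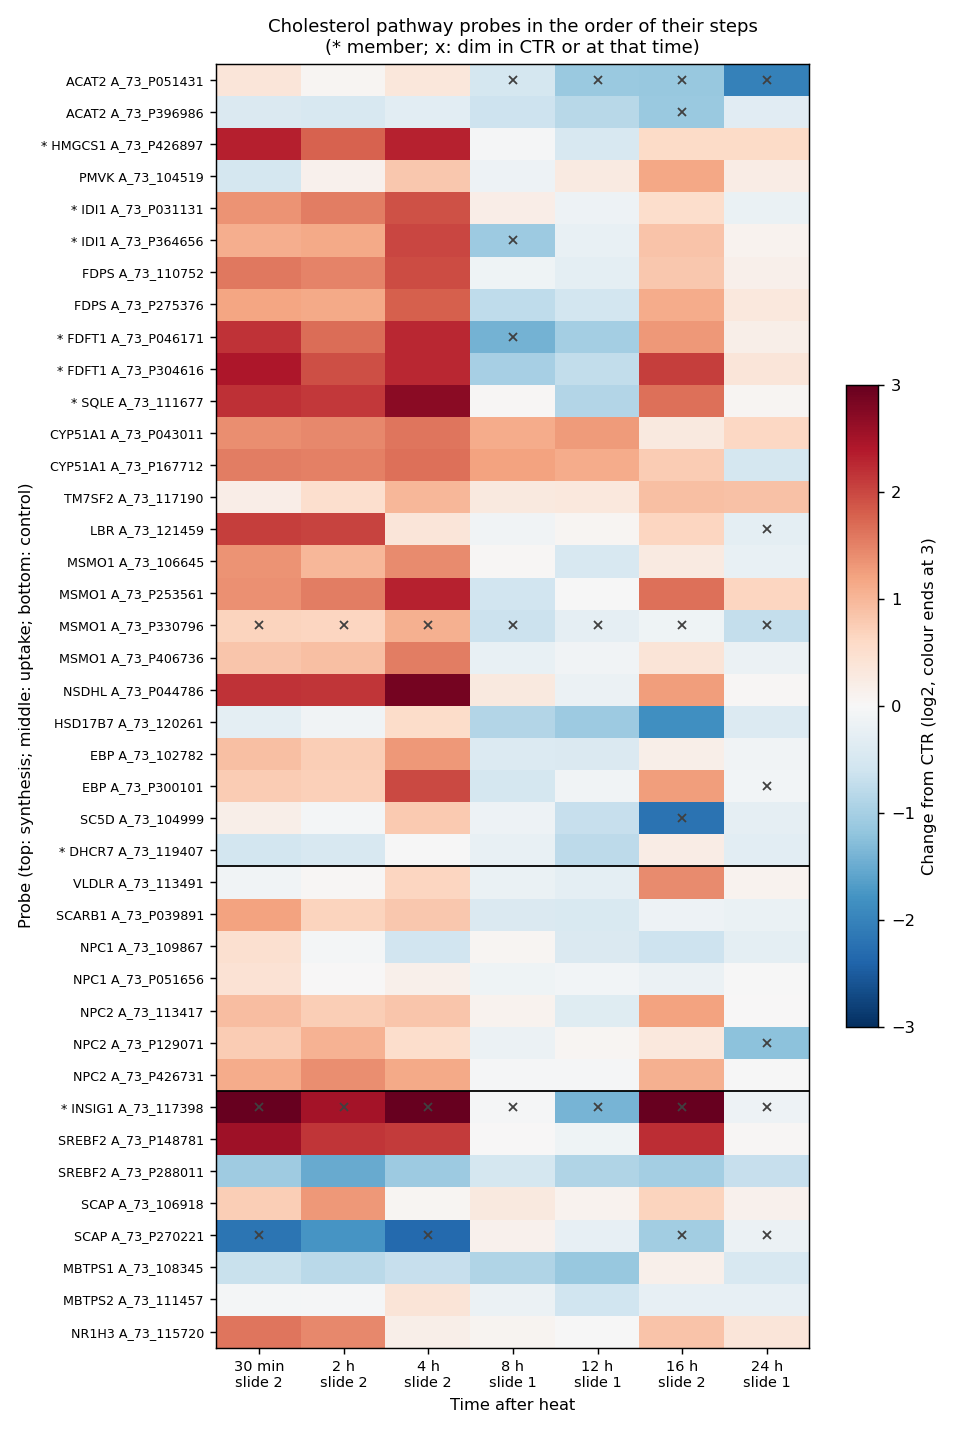
Change from CTR (colour, log2, red higher and blue lower, colours end at 3) of 40 probes of the pathway, in the order of the steps of synthesis (top), then uptake (middle) and control (bottom), at the 7 time points (columns). Shown are probes detected in CTR or on at least 4 arrays, stars mark the 8 member probes among them, and crosses mark probes dim in CTR or at that time. The columns of slide 2 are red for most synthesis steps from HMGCS1 to EBP, and DHCR7, HSD17B7, ACAT2, SC5D, PMVK and TM7SF2 are paler or blue there.

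Uptake genes, which bring cholesterol in with lipoproteins and carry it out of lysosomes, had few detected probes. Of 8 genes 6 have probes, 15 in number. Of 7 probes detected on both arrays 2, 2, 1 and 3 were at least 2-fold higher on the slide 2 arrays, beside 7.9%, 5.58%, 5.73% and 9.17% of all probes, and with so few probes nothing particular to uptake genes is read from these counts. The medians were 0.77, 0.67, 0.65 and 0.32. Among probes detected on both arrays, none was at least 2-fold higher on the late slide 1 arrays, or 2-fold lower on any array. At face value, with probes detected on either array, 1 of 9 was at least 2-fold lower at 2 h and 1 of 7 at 24 h. Of all probes tested that way, 18.7% and 8.33% were. The 24 h one was NPC2 A_73_P129071, which changed by -1.24, was dim there and has no bound. NPC2, a lysosomal cholesterol carrier, changed by 1.12, 1.40 and 1.14 at the first 3 time points and by 1.07 at 16 h with A_73_P426731. SCARB1, the HDL receptor, changed by 1.20 at 30 min and 0.80 at 4 h, and VLDLR by 1.42 at 16 h. NPC1, the partner of NPC2, stayed under 2-fold with both probes detected in CTR.

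Among 8 control genes, all with probes, the readings split. Of the probes detected on both arrays 2 of 6, 3 of 7, 1 of 6 and 1 of 6 were at least 2-fold higher on the slide 2 arrays, again beside 7.9%, 5.58%, 5.73% and 9.17% of all. At least 2-fold lower were 1, 2, 1 and 1 of them, beside 15.1%, 23.2%, 14.5% and 11.6%, and the medians were 0.34, -0.04, 0.11 and 0.41. SREBF2 encodes the SREBP that drives cholesterol synthesis. Its probe A_73_P148781 changed by 2.54, 2.16, 2.09 and 2.21 on slide 2, while A_73_P288011 changed by -1.07, -1.52, -1.09 and -1.02. Both were well above background on all arrays, so the direction for SREBF2 depends on the probe. SREBF1, which favours fatty acid genes, was not detected in CTR, and A_73_105306 was at least 1.6-fold higher at 4 h and 2.55-fold at 16 h. SCAP likewise split, with 1.29 at 2 h for A_73_106918 and -1.77 for A_73_P270221. INSIG2, the relative of INSIG1, was dim in CTR and well above background at 2 h, 4 h and 12 h, and the 1 bound that could be given was at least 1.04-fold higher, at 12 h. MBTPS1, a protease that cuts SREBP, changed by -1.14 at 12 h, and MBTPS2 by less than 2-fold throughout. NR1H3, a receptor for oxysterols, changed by 1.60 at 30 min and 1.44 at 2 h.

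The probes whose course was most like that of the members were sought among 6798 probes with a gene symbol, outside the members, that were well above background on the 7 arrays other than 30 min. The course of the members was the mean of 5 such member probes, DHCR7 included, over the 8 arrays in the deposited log2 values. The 5 genes with the highest Pearson's r were FDPS (0.99), AKT1S1 (0.99), GNG11 (0.99), TRH (0.98) and TMEM164 (0.98). FDPS is an enzyme of the pathway, while AKT1S1 is a subunit of the mTOR complex, GNG11 a G protein subunit, TRH a hormone precursor and TMEM164 a transmembrane protein. An r of at least 0.9 was reached by 142 probes, or 2.09%. The r of each member probe with the mean of the other member genes was 0.91 for HMGCS1, 0.90 for IDI1, 0.92 for FDFT1, 0.99 for SQLE and 0.18 for DHCR7. These values describe 8 arrays of 2 slides and carry no test.

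The cultures were checked against markers of epithelial and other cells. Of 8 epithelial genes (7 on CTR, all but KRT18) 15 probes were read, and their summed level, in units of the 75th percentile of the array, was 701, 538, 510 and 574 on slide 1, and 239, 245, 351 and 513 on slide 2. The epithelial sum was thus lowest at the 3 early times, when most members were high. Leukocyte markers rested on 23 probes of 10 genes. Their sum was 30.6, 22.7, 19.0 and 25.4 on slide 1, and 223, 155, 19.8 and 36.2 on slide 2. CD14, CD68, CD3E and TYROBP were dim in CTR and detected at 30 min and 2 h, while CD163 and ITGAM were dim on all arrays. CD14 was detected on no other array. CD68 was detected at 8, 12 and 16 h as well, TYROBP at 4, 12 and 16 h, and CD3E at 16 h. The other genes of the list, PTPRC, CD4, LYZ and AIF1, were detected on all arrays. The leukocyte sum was therefore high together with the members at 30 min and 2 h. At 4 h, where the median member change was 2.26, CD14, CD68 and CD3E were dim and TYROBP was detected. The leukocyte sum there was below that of CTR, while 6 probes of the list were above background against 4 in CTR.

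Fibroblast markers, 37 probes of 7 genes, summed to 14.3, 12.2, 9.61 and 15.5 on slide 1, and to 3.87, 3.28, 16.4 and 167 on slide 2. All 7 genes were detected at 16 h, and LUM, PDGFRA and THY1 on no other array. Probes of the list above background numbered 3 in CTR, 11 at 4 h and 20 at 16 h. Of 13 endothelial probes at most 2 were detected on any array. The part of other cell types in the changes of the members was not tested at any time point, 4 h included.

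**Figure D4:**
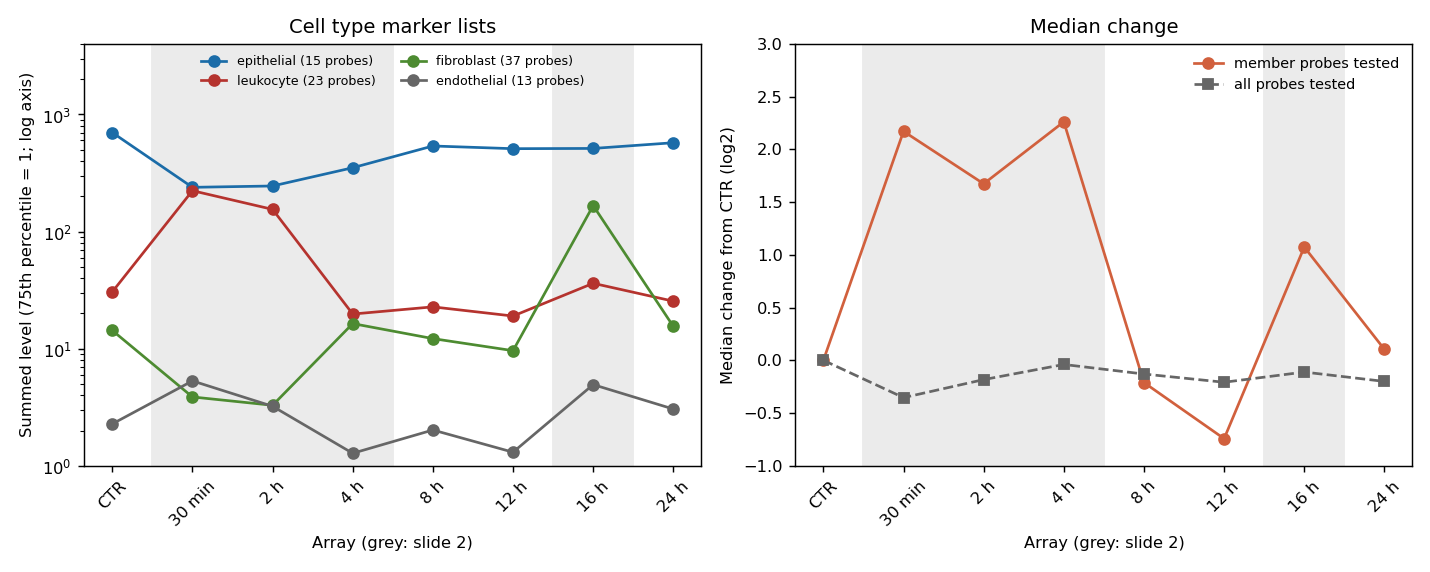
Left, summed level of the probes of 4 marker lists (y axis, log scale, the 75th percentile of each array being 1) on the 8 arrays (x axis). Right, median change from CTR (y axis, log2) of the member probes tested and of all probes tested. The leukocyte sum is high at 30 min and 2 h (223 and 155) and is 19.8 at 4 h, and the fibroblast sum is high at 16 h (167). The member median is 2.17, 1.67 and 2.26 at 30 min, 2 h and 4 h, over sets of probes that differ in part. The part of other cell types was not tested.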

How the data were processed

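The authors hybridised 1 bovine 4x44K array (1 colour, Cy3) per condition and deposited scanner intensities made with Feature Extraction 9.5.3.1, as well as a log2 table made in GeneSpring GX, in which arrays are aligned at their 75th percentile and probes at their median. Both were used as deposited. Here, the processed intensity was taken to log2 and the array's 75th percentile was subtracted. Outlier spots were dropped. A call was a change of at least 2-fold between CTR and a time point, for probes detected on either array. No test was made, since each condition had 1 array, and the number of arrays limits the precision.

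Across bright probes, Pearson's r between the changes from CTR in the scanner and in the deposited values was 0.19 at 30 min and 1.00 at the other times, so the deposited values were used at 30 min. Processed intensities were already corrected for background and spatial trend by the scanner software, which can shift dim probes most.

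The members, lists and filters were chosen with earlier results of these data known. Every member probe is named. Some other pathway genes are not reported here and enter neither the list counts nor the search for probes of like course. Other pathway genes are given by counts, with values where a probe passed 2-fold, and a few below it for comparison. Alternatives were other scalings (median, bright probes, quantile), normexp with an offset of 50 on the mean and background intensities (limma 3.58.1, R 4.3.3), other filters, a 3-fold cutoff, the dark region kept and slide-centred values. Added after the data were seen were the subtraction of the median of all probes tested, scaling to probes within 10 spots, and counts with spots dim on 1 array taken at their bound, the detection limit of that array. The counting was tested on simulated data. Python 3.11.15 with pandas 2.3.3 was used.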

Additional observations from a re-analysis of the deposited data

Results flagged for a closer look

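For FDFT1 and IDI1, a probe at least 2-fold above CTR at early time points was at face value at least 2-fold below it later. FDFT1 A_73_P046171 had a change of -1.43 at 8 h, where it was dim and at least 1.59-fold lower, and of -1.03 at 12 h, against 2.27 at 4 h. With normexp background correction the 12 h change was -0.36. IDI1 A_73_P364656 had a change of -1.09 at 8 h, where it was dim and at least 1.5-fold lower, so a 2-fold decrease is not shown, against 2.01 at 4 h. With 1 array per time point the difference between times was not tested. The later times lie on the slide of CTR and the early ones on the other, so slide and time cannot be told apart.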

How the results depend on the processing

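No paired analysis was possible because each condition had 1 array and all carry the same replicate number. The promoter motif count was not run, since no promoter sequences were used here, and quantile and normexp values were not computed at 30 min. With deposited log2 values, quantile normalization or the dark region kept, no member count moved beyond 1.5 times and no median beyond the error of a change. Under median scaling the median change of all probes tested was 0.52, 1.05 and -0.62 in the 2 h, 4 h and 24 h samples. The share of calls that were higher, 47.5%, 50.6%, 42.2%, 39.7% and 11.6% at 2, 4, 8, 12 and 24 h, became 83.1%, 94.9%, 64.1%, 72.5% and 1.66% under median scaling. Under normexp it became 68.4%, 75.5%, 82.2% and 82.2% at 2, 4, 8 and 12 h, and under bright-probe scaling 69.5% at 12 h. The member medians under median scaling were 2.38, 3.35 and -0.32 at 2, 4 and 24 h. Under normexp the member median at 12 h was -0.33. Less the median of all probes, the 30 min member median was 2.53, and scaled to nearby probes it was 2.46 (12 h: -0.35). Member probes at least 2-fold lower, 2 at 8 h and 1 at 12 h, were the least settled counts. At 8 h they numbered 1 under median scaling, after subtraction of the median of all probes and with nearby probes, and 0 under normexp, with dim spots at their bound, 1 probe per gene, both filters on detection and the 3-fold cutoff. At 12 h they numbered 0 under median scaling, bright-probe scaling, normexp, subtraction of the median of all probes, nearby scaling, 1 probe per gene, detection on all arrays and the 3-fold cutoff. Member probes at least 2-fold higher numbered 6 at 2 h and 5 at 4 h with 1 probe per gene, 6 at 2 h with detection on both arrays or with the 3-fold cutoff, and 4 of 5 at each early time and 2 of 5 at 16 h with detection on all arrays. The 30 min scanner intensities turned the result. Of 7 member probes detected in CTR or on that scan, 2 were higher and 5 lower, with a median of -2.30. The 2 higher ones, INSIG1 A_73_117398 and FDFT1 A_73_P337871, were dim in CTR. HMGCS1 A_73_P426897 changed by -3.09, IDI1 A_73_P031131 by -3.07, IDI1 A_73_P364656 by -1.80, FDFT1 A_73_P304616 by -2.30 and DHCR7 by -7.44. All 5 of these spots were dim on that scan. Slide-centred values remove by construction whatever differs between the slides. With them 20 changes past 2-fold changed sign. At 30 min they were SQLE -0.17, INSIG1 -0.24, IDI1 -0.017 (A_73_P031131) and -0.48, and FDFT1 -0.25 (A_73_P046171) and -0.085. At 2 h they were SQLE -0.25, INSIG1 -0.92, HMGCS1 -0.18 (A_73_P277761), IDI1 -0.43 (A_73_P364656), and FDFT1 -0.74, -0.58 and -0.16 (A_73_P046171, A_73_P304616 and A_73_P337871). At 4 h they were INSIG1 -0.28 and FDFT1 -0.15 (A_73_P046171) and -0.26. At 16 h they were SQLE -0.71, INSIG1 -0.13 and FDFT1 -1.13 (A_73_P046171) and -0.44. How much of the change of these genes lies between slides and how much between times cannot be told apart. Depth does not apply to arrays, and signal over background limits LSS, INSIG1 and the coding probes of HMGCS1 and FDFT1.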

Other observations

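Among 6 genes that carry cholesterol out of cells, store it as ester or oxidise it, 1 of 15 probes was detected in CTR. APOE, the lipoprotein that accepts exported cholesterol, differed between its probes. The probe detected in CTR, A_73_P038086, was 14.6-fold higher at 30 min, 13.6-fold at 2 h and 5.24-fold at 16 h, and 2.24-fold lower at 4 h. A_73_100548, dim in CTR, was at least 206-fold higher at 30 min, 226-fold at 2 h, 5.44-fold at 4 h and 109-fold at 16 h. The direction for APOE at 4 h thus depends on the probe. CYP27A1, which makes an oxysterol, was dim in CTR with all detected probes and at least 14-fold higher at 30 min and 12.5-fold at 2 h with A_73_110316. SOAT1, which esterifies cholesterol, was detected at 30 min and 2 h with A_73_P041426, at least 4.76-fold and 3.7-fold above CTR. At 4 h CYP27A1 had no fold by its bound, and SOAT1 was not detected. ABCA1 and CH25H were detected at 2 h only and ABCG1 at 12 h only, each with no fold by its bound. The early arrays on which APOE, CYP27A1 and SOAT1 were high had the highest sums of leukocyte markers, 223 at 30 min and 155 at 2 h. In CTR this sum was 30.6. At 16 h, where the leukocyte sum was 36.2 and the fibroblast sum 167, APOE was high too and SOAT1 was not detected. CYP27A1 was there at least 2.82-fold higher with A_73_P110571 and 1.77-fold with A_73_110316, and dim with its other probes. The part of other cells was not tested at any of these times.

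Of fatty acid genes that share the SREBP control, the probes detected on both arrays had their highest median change at 4 h and 16 h. The medians there were 2.59 and 3.52, against 1.48 at 30 min and 1.38 at 2 h. These probes belonged to 3 of 6 genes, SCD, FASN and ACLY, with more of SCD than of the others, and ACLY did not share this course. Of 8 such probes at 4 h 7 were at least 2-fold higher and 0 lower, and of 7 at 16 h 5 were higher and 0 lower, where 5.73% and 9.17% of all such probes were higher. On the late slide 1 arrays no probe of the list passed 2-fold in either direction. SCD, which desaturates fatty acids, changed by 3.47 at 4 h and 3.58 at 16 h with A_73_P287219, and FASN, the fatty acid synthase, by 1.52 and 1.96 with A_73_P174332. ACSS2, which activates acetate, was dim in CTR and at least 9.06-fold higher at 4 h. ACLY, which supplies acetyl-CoA from citrate, changed by 1.52, 1.48 and 1.49 at the 3 early times and by 0.84 at 16 h with A_73_111688. With A_73_P250666 these changes were 1.45, 1.28, 0.61 and 0.08, so a change past 2-fold at 4 h depends on the probe.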
